A study of Mus musculus with 5 samples.

Results

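The transcription factors that hold mouse embryonic stem cells (mESCs) in the naive pluripotent state were described here by their ribosome footprints. The 10 genes were chosen by name from the core of the pluripotency network: Pou5f1, Sox2, Nanog, Klf4, Klf2, Klf5, Esrrb, Tfcp2l1, Zfp42 and Sall4. They are 10 of 21870 genes with a protein-coding transcript among the 135276 transcripts of the table, and they own 34 of these transcripts, 30 of them protein-coding. Each gene was represented by its protein-coding transcript with the highest mean level, and the other transcripts were used to ask where on the gene the reads lay.

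Pou5f1 (Oct4) and Sox2 bind composite sites in the DNA together, and with Nanog, a homeobox protein, they occupy the regulatory regions of their own genes and of many other pluripotency genes. The cytokine LIF acts through Stat3 to raise Klf4 and Tfcp2l1, Klf2 and Klf5 are related zinc finger factors that overlap with Klf4 in function, and Esrrb is an orphan nuclear receptor released when Tcf7l1 repression is relieved. Zfp42 (Rex1) is a zinc finger protein of the Yy1 family widely used as a marker of the naive state, and Sall4 is a zinc finger protein that sustains Pou5f1 expression.

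The cells were mESCs maintained on gelatin in serum with LIF, and the labels call every library untreated and a biological replicate. AHA labelling as the methods describe it puts cells in a methionine-depleted medium before AHA is added. Standard RIBO-seq is described as run on the input, and the sources used here do not say whether that input came from cells taken through the same steps, so that the capture, the missing cushion and any effect of the depletion cannot be told apart between the methods. All cells received cycloheximide, which blocks elongation, before lysis, and RNase I (1.3 U, 45 min) then removed the RNA not covered by ribosomes. Standard RIBO-seq (3 libraries) took ribosomes pelleted through a 30% sucrose cushion. AHARIBO RIBO-seq (2 libraries) took ribosomes caught on magnetic beads through biotin joined to L-azidohomoalanine (AHA), a methionine analogue built into the growing peptide, with no cushion described. The methods name 46C as the mouse ES line and give an AHA dose and time for the proteomics and RNA-seq of these cells, without restating them for the ribosome profiling. Fragments of 25 to 35 nt were sequenced in runs of 50 bp for both methods. The comparison asked how the footprint level of each factor differed between the methods.

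The libraries held 6403651 to 11150527 reads after duplicate removal, and a count of 3, taken as the floor, corresponded to 0.262 to 0.476 CPM (counts scaled to a common library size). The 10 factors held between 515 and 3235 reads each in every library, far above that floor. Reads were counted on every transcript they matched: 3 transcripts of Pou5f1 held identical counts in all 5 libraries (682, 664, 499, 792 and 752 reads). Transcripts of a gene are therefore not independent measurements, and the library totals count some reads more than 1 time.

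Of 5 naive stem cell markers outside the 10 genes, Dppa5a was at 172 to 222 CPM and the threonine dehydrogenase Tdh at 117 to 134 CPM. Fbxo15 was at 49.5 to 56.8 CPM and Gdf3 at 40.1 to 48.8 CPM, whereas Dppa3 was only at 0.773 to 1.58 CPM. All 5 reached 1 CPM in at least 1 library, and 4 of them did so with duplicate reads kept. Of 28 markers of primed epiblast, mesoderm, endoderm, trophoblast, neural cells and fibroblasts, 16 reached 1 CPM in a library. Summed levels over each marker list were 1.77 to 3.17 CPM for mesoderm in standard RIBO-seq and 2.00 to 2.36 CPM in AHARIBO RIBO-seq. For endoderm they were 2.98 to 4.28 and 2.10 to 3.40 CPM, and for fibroblasts 3.86 to 5.15 and 4.11 to 4.39 CPM. Trophoblast markers summed to 15.6 to 17.6 and 15.8 to 19.7 CPM, mostly from Tfap2c and Krt8, while Cdx2 and Elf5, which define that lineage, stayed at or below 0.317 CPM. Neural markers summed to 55.7 to 56.2 and 49.3 to 51.1 CPM, of which the tubulin Tubb3 made up 31.7 to 36.8 CPM. Primed markers summed to 79.5 to 84.0 and 80.7 to 83.2 CPM, almost all from the DNA methyltransferase Dnmt3b, and Fgf5 was at 0.224 CPM or less. None of the 16 markers that reached 1 CPM passed the test between the methods, and the rest of the 28 were not tested. Apart from Dnmt3b, Tubb3, Sox1, Tfap2c, Krt8, Pou3f1 and Map2, every one of the 28 markers stayed below 4 CPM in all 5 libraries, and their part in the results was not tested.

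AHA can enter a peptide only at a methionine codon, so the first 90 coding nt of 6 factors are shown, with each in-frame methionine codon in capitals and the rest in lower case. The set holds the 4 factors that differed between the methods (Sox2, Klf4, Klf2 and Tfcp2l1) and 2 that did not pass the test (Pou5f1 and Zfp42). Sequences and positions are from Gencode M21 on GRCm38, given 5' to 3' on the coding strand.
Sox2: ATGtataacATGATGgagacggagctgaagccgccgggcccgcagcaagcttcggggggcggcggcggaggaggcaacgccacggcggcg
Klf4: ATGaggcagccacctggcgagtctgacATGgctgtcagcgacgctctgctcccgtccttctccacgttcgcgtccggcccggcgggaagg
Klf2: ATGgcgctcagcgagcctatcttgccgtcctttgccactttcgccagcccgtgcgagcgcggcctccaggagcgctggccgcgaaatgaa
Tfcp2l1: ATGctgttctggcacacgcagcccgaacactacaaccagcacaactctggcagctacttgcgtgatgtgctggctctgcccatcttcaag
Pou5f1: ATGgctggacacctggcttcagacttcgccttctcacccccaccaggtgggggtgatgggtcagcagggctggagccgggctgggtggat
Zfp42: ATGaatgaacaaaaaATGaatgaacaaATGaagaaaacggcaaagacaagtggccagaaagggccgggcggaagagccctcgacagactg

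The Sox2 stretch lies in the single exon of the gene at chr3:34650416-34650505 on the plus strand. That of Klf4 runs across exons 1 and 2 at chr4:55531666-55531871 on the minus strand, that of Klf2 across exons 1 and 2 at chr8:72319078-72319443 on the plus strand, and that of Tfcp2l1 across exons 1 and 2 at chr1:118628041-118632269 on the plus strand. The Pou5f1 stretch is in exon 1 at chr17:35506100-35506189 on the plus strand, and the Zfp42 stretch in exon 4 at chr8:43296373-43296462 on the minus strand. Sox2 and Zfp42 carry 3 methionine codons in this stretch and Klf4 carries 2, whereas Klf2, Tfcp2l1 and Pou5f1 carry the start codon alone. The next methionine codon of Klf2 is codon 50, that of Pou5f1 codon 68 and that of Tfcp2l1 codon 234.

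Between genes, footprint levels were compared as CPM per kb of coding sequence, since longer coding sequences collect more reads. The CPM were those of the whole transcript, so reads on untranslated regions count towards these levels although only the coding length divides them. On this scale the 10 factors stood in the same order in both methods, from Klf5 and Pou5f1 at the top to Sall4 and Klf4 at the bottom. In standard RIBO-seq the levels were 256 ± 11.5 for Klf5, 246 ± 13.2 for Pou5f1, 202 ± 13.01 for Zfp42, 153 ± 7.38 for Nanog and 138 ± 0.990 for Esrrb (mean ± SD, n = 3). They were 122 ± 1.41 for Sox2, 108 ± 3.56 for Klf2, 61.6 ± 1.18 for Tfcp2l1, 58.0 ± 0.975 for Sall4 and 53.7 ± 2.97 for Klf4. Klf5 and Pou5f1 overlapped in their library values, and the other 8 neighbouring pairs in this order did not. The widest step lay between Klf2 and Tfcp2l1, a ratio of 1.76.

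In AHARIBO RIBO-seq the same scale gave 219 ± 10.6 for Klf5, 213 ± 15.9 for Pou5f1, 199 ± 4.10 for Zfp42, 156 ± 11.3 for Nanog and 137 ± 9.16 for Esrrb (mean ± SD, n = 2). It gave 98.4 ± 9.81 for Sox2, 78.9 ± 5.88 for Klf2, 74.8 ± 3.41 for Tfcp2l1, 53.4 ± 3.83 for Sall4 and 42.4 ± 1.09 for Klf4. Here 3 neighbouring pairs overlapped, Klf5 with Pou5f1, Pou5f1 with Zfp42, and Klf2 with Tfcp2l1. The gap between Klf2 and Tfcp2l1 narrowed to a ratio of 1.06, since Klf2 was lower and Tfcp2l1 higher in this method. All factors were high among the 12208 genes ranked in this way, between percentile 91.1 (Klf4) and 98.7 (Klf5) in standard RIBO-seq and between 88.8 and 98.7 in AHARIBO RIBO-seq. When the whole transcript length replaced the coding length, 3 factors in standard RIBO-seq and 1 in AHARIBO RIBO-seq kept their rank.

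**Figure D1:**
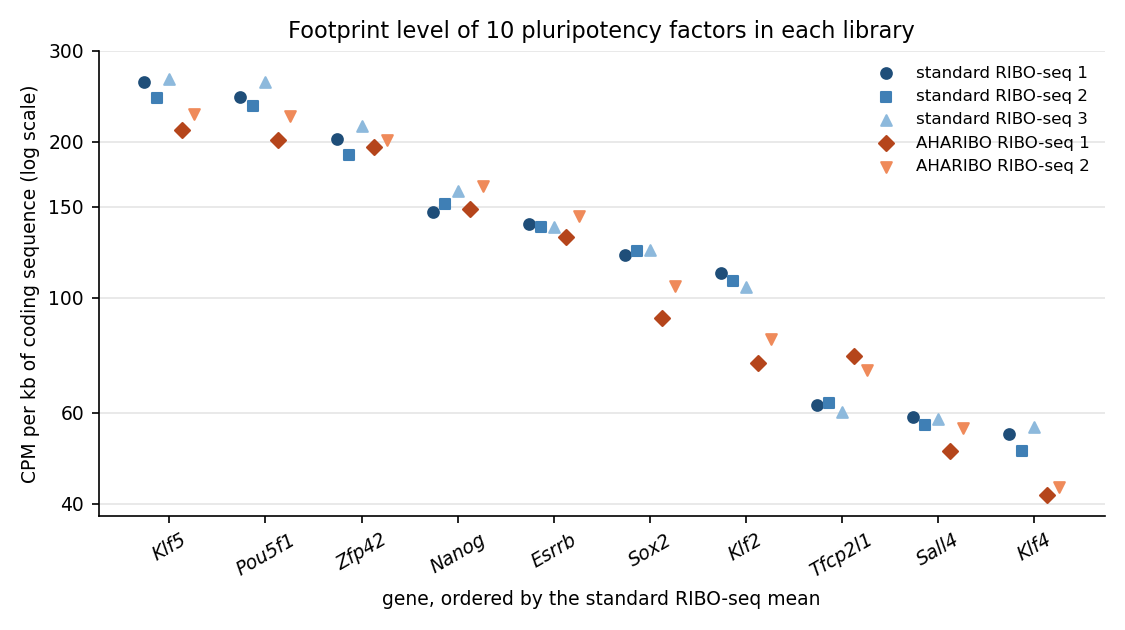
Footprint level of each factor in CPM per kb of coding sequence (y axis, log scale) in the 3 standard and 2 AHARIBO RIBO-seq libraries, 1 point per library, with the genes ordered by their standard RIBO-seq mean (x axis). The order from Klf5 to Klf4 was the same in both methods, and the AHARIBO points lay below all standard points for 6 genes and above them for Tfcp2l1.

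Together the 10 transcripts took 0.169%, 0.163% and 0.171% of all reads in the standard libraries, and 0.152% and 0.161% in the AHARIBO libraries. Both AHARIBO shares were below all standard shares, but over all transcripts of these genes the shares overlapped (0.3705% in standard replicate 2 and 0.3708% in AHARIBO replicate 2).

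Klf2, Klf4 and Sox2 were lower in AHARIBO RIBO-seq and Tfcp2l1 was higher, by edgeR's quasi-likelihood test with Benjamini-Hochberg adjustment over 66972 transcripts. The other 6 factors did not pass that test, and at an unadjusted p under 0.05 there were 5 factors lower and 1 higher. Among the highest protein-coding transcripts of all genes, 2.53% were called lower and 2.59% higher (9.54% and 9.87% at the unadjusted p), and among all transcripts tested 4.51% were called in either direction. Without regard to the test, 6 factors were lower in both AHARIBO libraries than in every standard library and 1 was higher. Over all genes these shares were 17.1% and 17.2%. The median log2 fold change (AHARIBO over standard) was -0.17 over the 10 factors, against -0.00 over all genes.

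Of the core trio, Pou5f1 (chr17:35506018-35510772, plus strand) measured 258, 249 and 276 CPM in standard RIBO-seq and 214 and 237 CPM in AHARIBO RIBO-seq. Both AHARIBO values lay below the standard values, but the log2 fold change of -0.21 ± 0.078 (SE) did not pass the edgeR test (adjusted p = 0.111, approximate 95% interval -0.36 to -0.06). The value rested on the AHARIBO library used, with -0.29 without AHARIBO replicate 2 (adjusted p = 0.0479) and -0.13 without AHARIBO replicate 1 (adjusted p = 0.658).

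Sox2 (chr3:34650405-34652461, plus strand), the partner of Pou5f1 on DNA, measured 116, 118 and 118.5 CPM in standard RIBO-seq and 87.8 and 101 CPM in AHARIBO RIBO-seq. The groups did not overlap, and the level fell by 0.32 ± 0.080 on the log2 scale (edgeR adjusted p = 0.013), 1.24-fold lower. The spread between the AHARIBO libraries (SD 9.42 CPM) was wider than that between the standard libraries (SD 1.35 CPM). The call was lost in DESeq2 (adjusted p = 0.0648), without standard replicate 1 (0.0837) and without AHARIBO replicate 1 (0.396).

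Nanog (chr6:122707568-122714633, plus strand) measured 135, 139 and 148 CPM in standard RIBO-seq and 136 and 151 CPM in AHARIBO RIBO-seq. Its groups overlapped, and the log2 fold change of 0.03 ± 0.078 did not pass the test (edgeR adjusted p = 0.878, approximate 95% interval -0.12 to 0.18). The sign turned to -0.04 without AHARIBO replicate 2.

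Among the Krüppel-like factors, Klf2 (chr8:72319033-72321656, plus strand) measured 119.1, 115 and 112 CPM in standard RIBO-seq and 79.6 and 88.5 CPM in AHARIBO RIBO-seq. Every AHARIBO value was well below every standard value. Klf2 fell by 0.46 ± 0.080 on the log2 scale, 1.37-fold lower (edgeR adjusted p = 0.000177, DESeq2 adjusted p = 0.000584). This was the lowest fold change of the 10 factors and the only one called in DESeq2, in which 1.37% of transcripts with an adjusted p were called. It passed in every alternative run here except the fit of counts summed per gene (adjusted p = 0.0654).

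Klf4 (chr4:55527143-55532466, minus strand), a target of the LIF pathway, measured 79.1, 73.3 and 81.7 CPM in standard RIBO-seq and 60.4 and 62.6 CPM in AHARIBO RIBO-seq. The groups did not overlap, and Klf4 fell by 0.34 ± 0.082 on the log2 scale, 1.27-fold lower (edgeR adjusted p = 0.00836). The adjusted p was 0.0609 in DESeq2 and, in edgeR, 0.0809 without standard replicate 1. With replicate number as a block it was 0.0881 and with protein-coding transcripts summed per gene 0.0666, both in edgeR. The log2 fold change was -0.31 without AHARIBO replicate 1 and -0.36 without AHARIBO replicate 2.

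Klf5 (chr14:99298691-99315036, plus strand), the factor with the highest level per coding length, measured 351, 326 and 354 CPM in standard RIBO-seq and 283 and 303 CPM in AHARIBO RIBO-seq. Its groups did not overlap either, and its log2 fold change of -0.23 ± 0.076 missed the threshold (edgeR adjusted p = 0.0705, approximate 95% interval -0.38 to -0.08). It passed when no filter on low counts was set (adjusted p = 0.0395).

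Tfcp2l1 (chr1:118627946-118685168, plus strand), a CP2-like factor downstream of Stat3, went the other way. It measured 89.4, 89.96 and 86.8 CPM in standard RIBO-seq and 111 and 104 CPM in AHARIBO RIBO-seq. Both AHARIBO values exceeded every standard value, and Tfcp2l1 rose by 0.28 ± 0.078 on the log2 scale, 1.21-fold (edgeR adjusted p = 0.0257). The call was lost in DESeq2 (adjusted p = 0.124) and, in edgeR, with duplicate reads kept (0.219) and without standard replicate 1 (0.137) or 3 (0.0728). It was also lost in edgeR with replicate number as a block (0.185) and with protein-coding transcripts summed per gene (0.138). The log2 fold change was 0.23 without AHARIBO replicate 1 and 0.33 without AHARIBO replicate 2.

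Esrrb (chr12:86421644-86521625, plus strand) measured 189, 187 and 187 CPM in standard RIBO-seq and 179 and 196 CPM in AHARIBO RIBO-seq. The standard values lay between those of the AHARIBO libraries, and the log2 fold change was -0.00 ± 0.076 (edgeR adjusted p = 0.996, approximate 95% interval -0.15 to 0.15). The sign turned positive when library size replaced the TMM factors, edgeR's trimmed-mean scaling (0.03), without standard replicate 1 (0.00) and without AHARIBO replicate 1 (0.07).

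Zfp42 (chr8:43295067-43306980, minus strand) measured 175, 164 and 186 CPM in standard RIBO-seq and 170 and 175 CPM in AHARIBO RIBO-seq. The groups overlapped, with a log2 fold change of -0.02 ± 0.077 (edgeR adjusted p = 0.925, approximate 95% interval -0.17 to 0.13). The sign was positive in 5 of 14 alternatives, the highest being 0.16 with duplicate reads kept. The pseudogene Zfp42-ps1 shares 31.03% of the 30-nt windows of the Zfp42 coding sequence and was listed at 45.5 to 55.5 CPM, so reads of the gene and of the pseudogene cannot be told apart there.

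Sall4 (chr2:168748332-168767201, minus strand) measured 188, 182 and 187 CPM in standard RIBO-seq and 162 and 180 CPM in AHARIBO RIBO-seq. Both AHARIBO values were below the standard values, by a margin that did not pass the test (log2 fold change -0.12 ± 0.077, edgeR adjusted p = 0.417, approximate 95% interval -0.27 to 0.03). Without AHARIBO replicate 1 the log2 fold change was -0.05 and without AHARIBO replicate 2 it was -0.19.

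**Figure D2:**
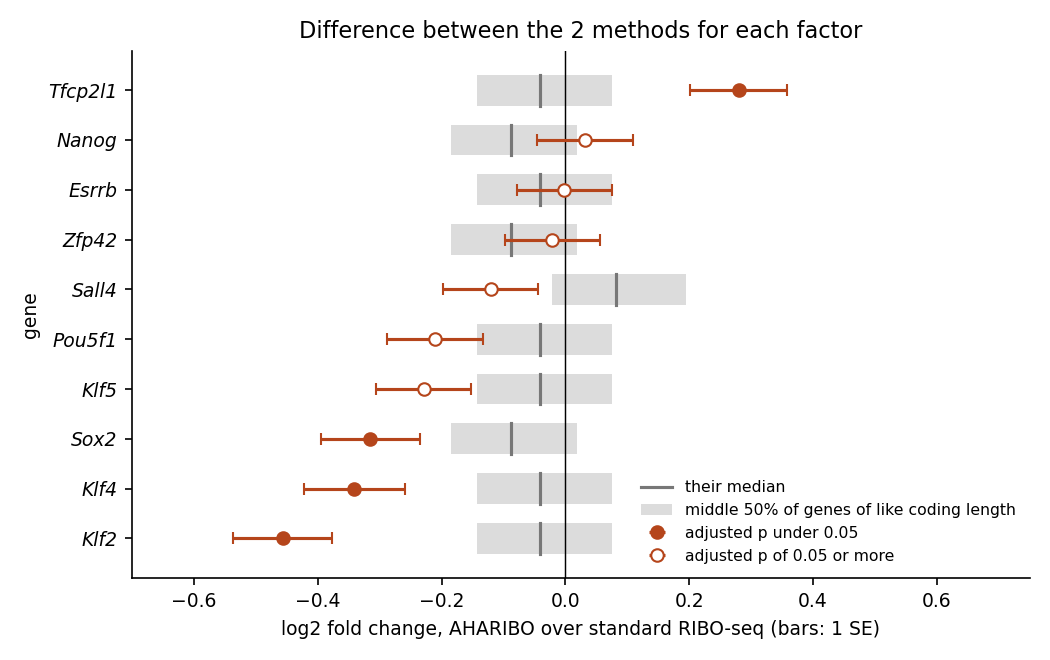
Log2 fold change of AHARIBO over standard RIBO-seq (x axis) for each factor (y axis), with bars of 1 SE; filled points passed the edgeR test and open points did not. Grey bars span the middle 50% of genes with a like coding length and the grey line is their median, so that Klf2, Klf4, Sox2, Klf5, Pou5f1 and Sall4 stand to the left of their bar, Tfcp2l1 and Nanog to the right of it, and Esrrb and Zfp42 within it.

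Sequence shared with other genes was limited for most factors. The 30-nt windows of the coding sequence found in any other gene made up 14.2% in Nanog, 12.04% in Pou5f1, 8.16% in Klf5, 4.36% in Klf4, 2.26% in Sox2 and 0.225% in Esrrb. Klf2, Tfcp2l1 and Sall4 shared no coding window with another gene. The Pou5f1 pseudogene-like transcript Gm5712, which shares 9.13% of the coding windows, was listed at 19.3 to 28.4 CPM, and Nanog-ps1, which shares 11.9%, at 12.6 to 15.6 CPM.

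Shorter transcripts of the same genes showed where along the message the reads differed. A shorter transcript that holds only the 5' end of the message collects the reads of that stretch, and its reads were expressed as a percent of those on the highest transcript of the gene in the same library. These ratios do not change with the normalization of a library, and reads on sequence that the shorter transcript alone holds count towards them. With 2 against 3 libraries an exact permutation test cannot give a p below 0.1, so the ratios are described by their overlap.

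Tfcp2l1 showed the widest shift of this kind. Its short transcript ENSMUST00000190652.1 covers nt 1 to 311 of the message, which are the 5' untranslated region and the first 216 of 1440 coding nt, and adds 167 windows of sequence of its own. It held 35.1%, 34.6% and 35.6% of the Tfcp2l1 reads in standard RIBO-seq and 22.1% and 24.3% in AHARIBO RIBO-seq. The difference in means was -11.9 percentage points, and -12.4 with duplicate reads kept. The 5' transcript itself fell by 0.32 ± 0.094 on the log2 scale (edgeR adjusted p = 0.035, DESeq2 adjusted p = 0.253), whereas the full transcript rose. The reads of the full transcript less those of the 5' transcript measured 58.0, 58.8 and 55.8 CPM in standard RIBO-seq and 86.6 and 78.9 CPM in AHARIBO RIBO-seq, 1.44-fold higher. This remainder is net of reads on the sequence that the 5' transcript alone holds. Of the windows behind it, 7705 lie in the 3' untranslated region and 1253 in the coding sequence, and 226 windows of the full transcript, none of them coding, also occur in 174 other genes.

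Klf4 was lower on both of its short transcripts, and most on the one that starts in the 5' untranslated region. Its transcript ENSMUST00000132746.1 runs from the 5' untranslated region to coding nt 398 of 1452 but skips part of the coding sequence between. It shares 248 coding windows with the full transcript and adds 29 windows of its own. This transcript held 38.2%, 38.7% and 37.9% of the Klf4 reads in standard RIBO-seq against 31.01% and 30.1% in AHARIBO RIBO-seq. It fell by 0.66 ± 0.100 on the log2 scale (edgeR adjusted p = 8.73e-06, DESeq2 adjusted p = 0.00121), more than the full transcript. The remainder measured 48.8, 44.9 and 50.8 CPM against 41.7 and 43.7 CPM, also without overlap. A second short transcript, ENSMUST00000129250.1, which covers coding nt 4 to 507, fell by 0.45 ± 0.104 (edgeR adjusted p = 0.00592), a call lost in DESeq2 (adjusted p = 0.112). Its share of 29.6%, 32.7% and 30.5% against 28.8% and 28.4% differed less, and overlapped between the methods with duplicate reads kept.

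Sall4 showed the same direction on a smaller scale. The transcript ENSMUST00000130640.1, which covers the end of the 5' untranslated region and the first 166 of 3204 coding nt and adds 101 windows of its own, held 10.9%, 9.81% and 10.7% of the Sall4 reads in standard RIBO-seq and 8.84% and 8.39% in AHARIBO RIBO-seq. It fell by 0.40 ± 0.113 on the log2 scale (edgeR adjusted p = 0.0276, DESeq2 adjusted p = 0.248). The remainder overlapped between the methods, at 168, 164 and 167 CPM against 148 and 165 CPM. Tfcp2l1, Klf4 and Sall4 were the 3 factors with such a 5' transcript at a mean of 10 CPM or more, and in all of them its share was lower in AHARIBO RIBO-seq without overlap. The same was seen in 45.1% of 574 genes with such a transcript and the opposite in 3.83%. The direction was therefore common, with a median difference of -2.32 points over these genes. A larger drop than that of Tfcp2l1 was found in 2.27% of them, than that of Klf4 in 10.5% and than that of Sall4 in 56.8%.

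The Esrrb total overlapped between the methods, but the part of its reads outside the coding transcript did not. Its transcript ENSMUST00000167891.1 holds the coding sequence from nt 51 on and almost nothing else, and took 97.1%, 97.2% and 97.8% of the Esrrb reads in standard RIBO-seq but 83.3% and 85.9% in AHARIBO RIBO-seq. The reads of the full transcript outside it numbered 49, 47 and 26 in standard RIBO-seq and 341 and 277 in AHARIBO RIBO-seq. As levels these were 5.49, 5.19 and 4.13 CPM against 29.8 and 27.7 CPM, a 5.83-fold higher mean in AHARIBO RIBO-seq. Of the windows missing from the coding transcript, 2531 lie in the 3' untranslated region, 242 in the 5' untranslated region and 108 in the coding sequence.

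Another transcript, ENSMUST00000116402.9, lacks most of the same 5' end, keeps the full 3' untranslated region and adds 425 windows of its own. Its count was below that of the full transcript by 0 to 0.799 CPM in the 5 libraries, a net difference that overlapped between the methods. With ENSMUST00000021680.11, which has the first part of the 3' untranslated region and lacks 1825 windows of the rest, the remainder was 3.25, 4.86 and 3.01 CPM in standard RIBO-seq and 21.2 and 19.2 CPM in AHARIBO RIBO-seq, 5.44-fold higher by the means. The coding transcript alone had a log2 fold change of -0.20 ± 0.078 (edgeR adjusted p = 0.125), against -0.00 for the full transcript. A lower share on the transcript with the shorter 3' end, without overlap, was seen in 32.7% of 733 genes with such a pair and the opposite in 9.82%. The median difference over these genes was -0.65 points, and 1.501% had a larger drop than the -12.8 points of Esrrb. With duplicate reads kept the Esrrb difference was -8.28 points.

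Of 5 factors with a transcript whose shared sequence lies inside the coding sequence, the share of reads on it was higher in AHARIBO RIBO-seq without overlap in Pou5f1 and Klf5, lower in Klf4 (the second short transcript above, which overlapped with duplicate reads kept) and overlapping in Esrrb and Sall4. Of 1091 genes with such a transcript, 22.2% were higher and 13.5% lower without overlap. The Pou5f1 transcript ENSMUST00000172651.7 covers coding nt 384 to 790 of 1059 and held 29.6%, 29.5% and 28.7% of the reads in standard RIBO-seq and 32.5% and 31.6% in AHARIBO RIBO-seq. The Klf5 transcript ENSMUST00000226784.1 covers coding nt 160 to 1163 of 1341 and held 47.4%, 48.4% and 47.4% against 52.8% and 50.2%. Only 34.5% of the windows of this Klf5 transcript lie in the highest transcript and 1848 are its own, so that its reads cannot be assigned to the inner stretch. For the Pou5f1 transcript 93.1% of windows are shared, and the reads of the full transcript less those of the inner one were lower in AHARIBO RIBO-seq without overlap, at 0.830 of the standard mean. The isoforms of Nanog and Zfp42 differ mainly in their 5' untranslated regions, and their shares overlapped between the methods. Sox2 and Klf2 have a single transcript in the table, so that no such split could be made.

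**Figure D3:**
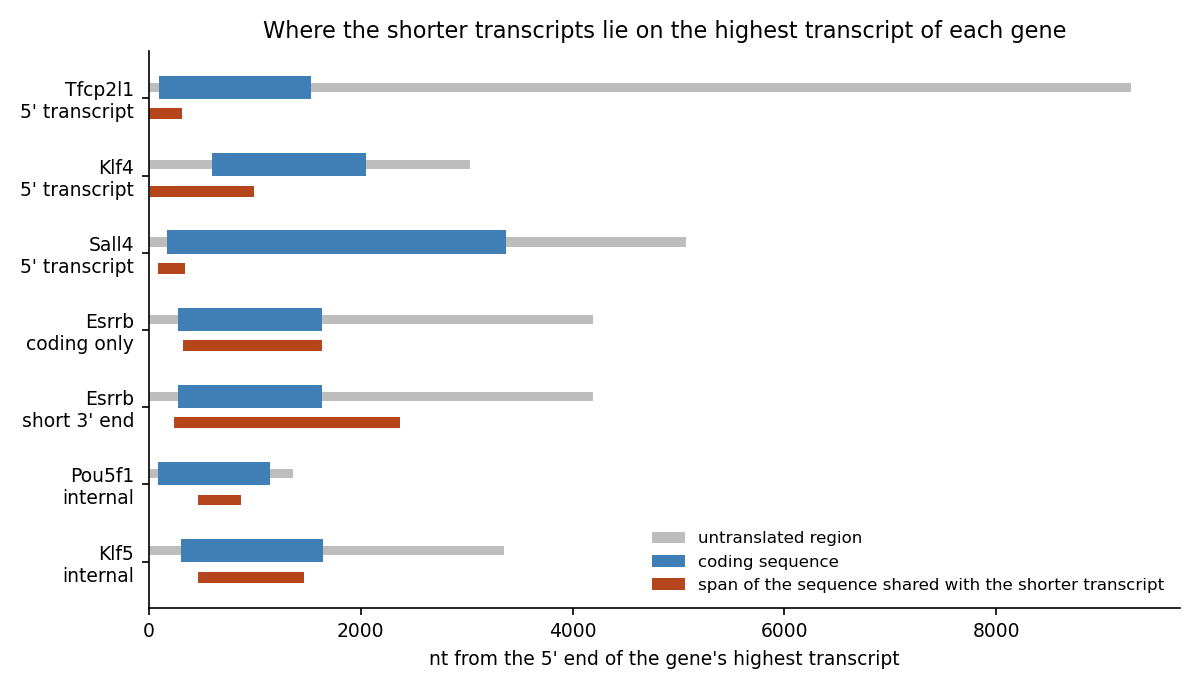
Position of the shorter transcripts on the highest transcript of each gene, in nt from its 5' end (x axis), with the coding sequence in blue, untranslated regions in grey and the span of shared sequence in red. The transcripts of Tfcp2l1, Klf4 and Sall4 end early in the coding sequence, the first Esrrb transcript stops at the stop codon, and those of Pou5f1 and Klf5 lie inside the coding sequence.

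**Figure D4:**
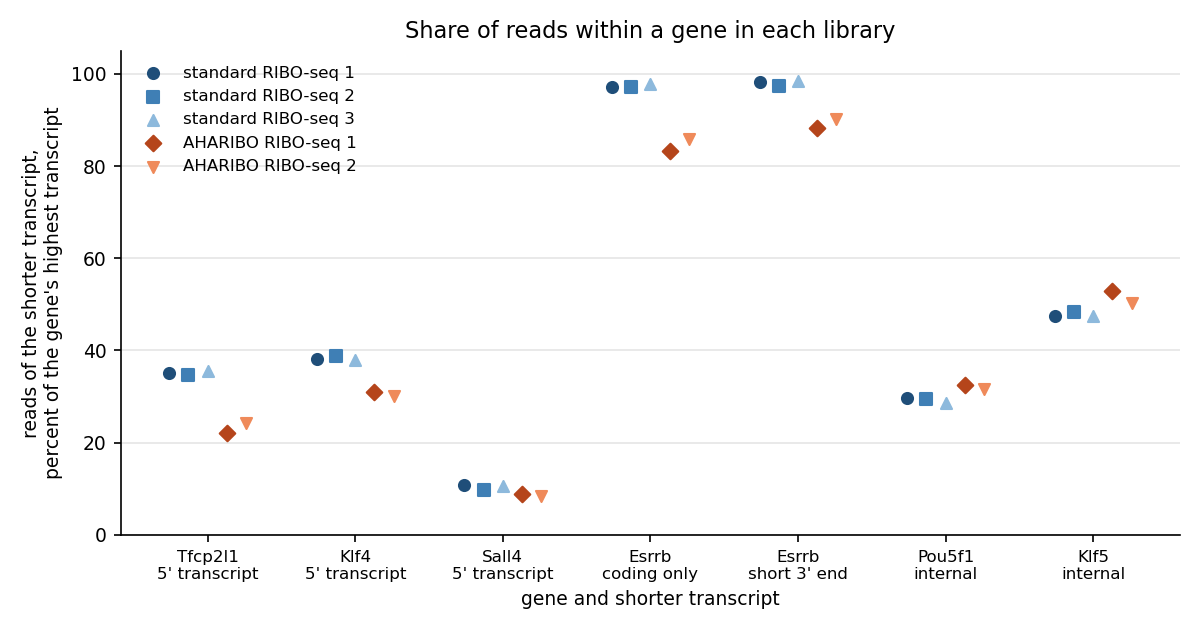
Reads on the shorter transcript as a percent of those on the highest transcript of the same gene (y axis) for 7 transcripts of 6 factors (x axis), 1 point per library. The AHARIBO points lay below the standard points for Tfcp2l1 (22.1% and 24.3% against 34.6% to 35.6%), Klf4, Sall4 and both Esrrb transcripts, and above them for Pou5f1 and Klf5.

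The number of methionine codons did not order the 10 factors. Sox2 has the most, 25 in its coding sequence or 7.84 per 100 codons, and was lower in AHARIBO RIBO-seq. Tfcp2l1 has 5, the lowest density with 1.04 per 100 codons, and was the factor that rose, while Klf2, also with 5 (1.41 per 100 codons), fell the most. Sall4 has 23, Esrrb 15, Klf5 13, Klf4 8, Nanog 7 and Pou5f1 and Zfp42 6 each.

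Across 5974 genes with a mean of 10 CPM or more, the fold change rose with the number of methionine codons (Spearman's rho = 0.437) and about as much with the coding length (0.458). It did not follow methionine codons per 100 codons (0.005). These correlations are across genes within the same 5 libraries, and genes are not independent replicates. The median log2 fold change went from -0.16 for 610 genes with up to 500 coding nt to -0.09 for 1300 genes with up to 1000, -0.04 for 1280 genes with up to 1500, 0.01 for 1437 genes with up to 2500, 0.08 for 1015 genes with up to 5000 and 0.17 for 332 longer genes.

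Against genes of like coding length the factors stood as follows. Of the 1280 genes with 1000 to 1500 coding nt, 0.391% had a lower fold change than Klf2, 3.13% than Klf4, 10.9% than Klf5 and 13.4% than Pou5f1. Tfcp2l1 was above 96.3% of these genes and Esrrb above 60.4%. In the class of 500 to 1000 coding nt, 5.38% of genes were lower than Sox2, while Zfp42 was above 66.2% and Nanog above 77.6%. Sall4, the longest factor with 3204 coding nt, was above only 8.28% of the genes of its class, which as a whole leaned towards AHARIBO RIBO-seq.

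**Figure D5:**
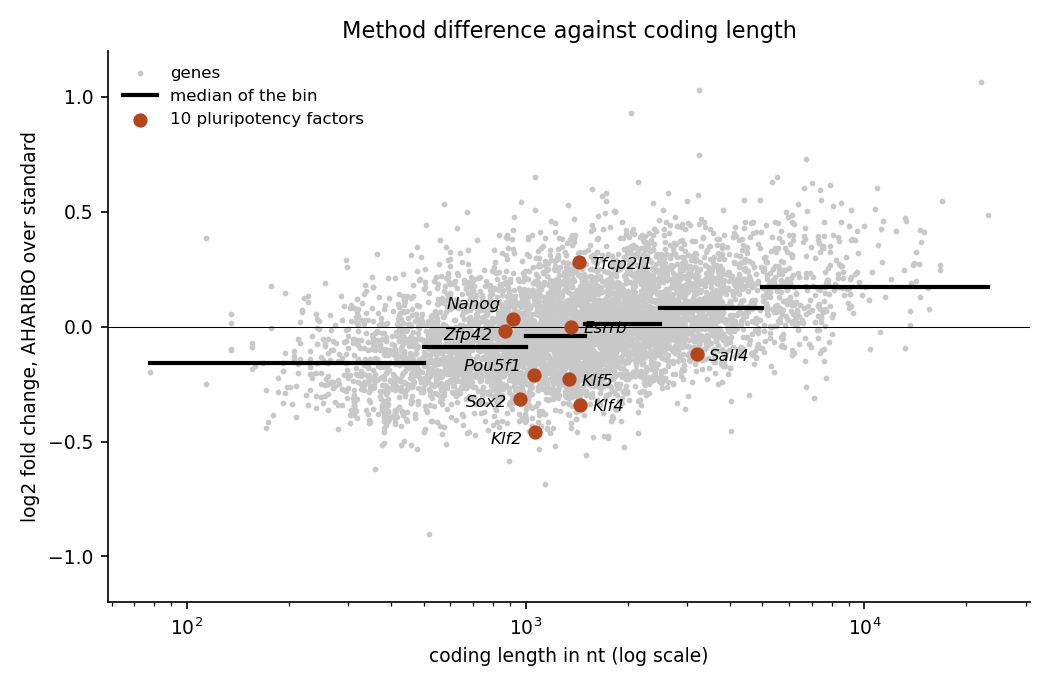
Log2 fold change of AHARIBO over standard RIBO-seq (y axis) against coding length in nt (x axis, log scale) for 5974 genes in grey, the median of each length class as a black line and the 10 factors in red; 6 genes lie beyond the y axis at 1.2. The class medians climb from -0.16 to 0.17, Tfcp2l1 lies above its class and Klf2, Klf4, Sox2 and Sall4 lie below theirs.

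Among 28 further genes of the pluripotency network, 4 were lower in AHARIBO RIBO-seq, 1 was higher and 23 did not pass the edgeR test, that is 4 and 1 of 28 beside 2.53% and 2.59% of all genes. The median log2 fold change of this list was -0.04. The homeobox factor Gbx2, a LIF target, measured 46.0, 43.9 and 40.1 CPM in standard RIBO-seq and 33.2 and 32.95 CPM in AHARIBO RIBO-seq (log2 fold change -0.40 ± 0.089, adjusted p = 0.00429). The forkhead factor Foxd3 fell by 0.40 ± 0.093 (adjusted p = 0.00595), the chromatin-bound factor Utf1 by 0.34 ± 0.078 (adjusted p = 0.00484) and the orphan nuclear receptor Nr0b1 by 0.26 ± 0.077 (adjusted p = 0.0396). Rif1, a large protein of replication timing and telomeres, rose by 0.39 ± 0.081 (adjusted p = 0.00173), from 126.5, 118.5 and 107.7 CPM to 167 and 143 CPM. In all 5 the groups did not overlap, as in 17.1% (lower) and 17.2% (higher) of all genes, and DESeq2 called Utf1 and Rif1 alone. All 5 calls were lost in edgeR without AHARIBO replicate 1 (adjusted p from 0.0521 for Gbx2 to 0.37 for Nr0b1) and with protein-coding transcripts summed per gene, and those of Gbx2 and Utf1 also without standard replicate 1 (adjusted p = 0.0697 and 0.0671). The call of Nr0b1 was lost in edgeR without any 1 of the standard libraries too (adjusted p from 0.0586 to 0.21), scaled by library size (0.0606), with duplicate reads kept (0.116) and with 1 transcript per gene (0.0631). With replicate number as a block, edgeR lost the calls of Nr0b1 (adjusted p = 0.187), Utf1 (0.0971) and Rif1 (0.0753). The corepressor Trim28 had the most reads of the list with 633, 623 and 638 CPM against 517 and 587 CPM and did not pass (adjusted p = 0.138). Sox15, with the fewest at 2.70 to 4.93 CPM, and Prdm14, at 9.07 to 11.6 CPM, did not pass either.

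Of 19 close relatives of the factors, 17 reached 1 CPM in a library: Sox1, Sox3, Sox15, Sox21, Esrra, Klf3, Klf6, Klf9, Klf10, Klf13, Sall1, Sall3, Tfcp2, Pou2f1, Pou3f1, Yy1 and Yy2. Esrrg and Sall2 stayed below 1 CPM in every library, so that Esrrb and Sall4 were read beside Esrra, Sall1 and Sall3 alone of their families as listed. Yy1, the relative of Zfp42, was the only one of the 17 called, beside 2.53% of all genes called lower and 2.59% higher, and fell by 0.28 ± 0.084 on the log2 scale (55.1, 52.1 and 54.1 CPM against 45.4 and 43.2 CPM, edgeR adjusted p = 0.0434, DESeq2 adjusted p = 0.214). The Krüppel-like relatives Klf3, Klf6, Klf9, Klf10 and Klf13 did not pass the test, with log2 fold changes from -0.24 to 0.10.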

How the data were processed

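The deposited table holds read counts for each transcript, made by the authors without normalization, 1 version with duplicates removed (used here) and 1 with them kept, and the transcript length in nt (another column of the same table). Per the labels and the methods, the authors trimmed reads with Trimmomatic 0.36, removed rRNA and tRNA reads, aligned the rest to Gencode M17 transcripts with STAR (genome build GRCm38.p6) and removed antisense reads. Without molecular identifiers, duplicate removal also takes separate fragments that share both ends. The number of per-sample columns not used was 0.

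Names, coding sequences and positions came from Gencode M21, which matched 134952 of 135276 transcripts (99.8%) by identifier. All 34 transcripts of the 10 genes had the deposited length. Methionine codons were counted in these coding sequences, in place of a RefSeq protein as had been planned.

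CPM values (counts per 1e6 reads) used TMM factors from all transcripts (edgeR 4.0.16 in R 4.3.3). The test for transcripts with 1 CPM in at least 1 library was edgeR's quasi-likelihood test on method alone, with Benjamini-Hochberg adjustment over 66972 transcripts and a threshold of 0.05. SEs and 95% intervals are approximate, being derived from the F statistic. DESeq2 1.42.0 served as an alternative test. Both tests, and the search for shared sequence, were run on simulated data. For the tests the planted changes were larger than any called for the factors, so the simulation does not cover changes of that size. Shared sequence was sought in windows of 30 nt. A 5' transcript had at least 50% of its windows in the highest transcript, reached over the start codon, ended in the first of 3 equal parts of the coding sequence and had a mean of 10 CPM. A transcript with a shorter 3' end had 90% of its windows in the highest transcript and 90% of that transcript's coding windows, and lacked at least 200 windows of its 3' untranslated region, at least 80% of all it lacked. An inner transcript had at least 30% of its windows in the highest transcript, all inside the coding sequence, and a mean of 10 CPM.

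Samples were grouped by their labels. All 10 factors, the called genes of the network list and its 2 highest and 2 lowest, and relatives with 1 CPM were named. The members and lists were chosen with earlier results of these data known, and the ratios within genes were chosen after seeing the data. Alternatives covered test, normalization, filter, threshold, duplicates, replicate block, choice of transcript and each library left out. Floors of 3 counts cover counting error only.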

Additional observations from a re-analysis of the deposited data

How the results depend on the processing

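The counts of factors called rest on few libraries and on the choice of test. Of the 1 factor called higher and 3 called lower, 0 and 1 were left in DESeq2, 0 and 1 with the replicate block, and 0 and 0 with protein-coding transcripts summed per gene. With duplicate reads kept, 0 were called higher. Leaving out each library in turn gave 0 to 1 called higher and 1 to 4 called lower. For the network list (1 higher, 4 lower), DESeq2 called 1 lower, the replicate block gave 0 and 2, the sum per gene 0 and 0, and library size in place of TMM 2 higher. A threshold of 0.1 gave 2 higher and 6 lower of this list, and no share over all genes was computed at that threshold. Leaving out each library in turn gave 0 to 2 higher and 0 to 6 lower. At an unadjusted p under 0.05, edgeR or DESeq2 gave 1 factor higher and 3 to 6 lower in each of these settings, and 1 to 3 higher and 5 to 10 lower of the network list, beside 3.29% to 12.33% (higher) and 4.17% to 10.98% (lower) of all genes. The cause was not tested. The sources used here do not say whether same-numbered libraries of the 2 methods came from the same cells. Deviations of same-numbered libraries from their method means correlated at 0.036 for replicate 1 and -0.094 for replicate 2. The deviations of 2 AHARIBO libraries mirror each other, so these values are not independent and cannot settle whether the libraries are paired.

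By whole transcript length 3 of 10 factors kept their rank in standard and 1 in AHARIBO RIBO-seq, and by summed transcripts 3 and 2. Leaving out each library in turn left 10 in standard and 8 to 10 in AHARIBO RIBO-seq. The share of reads on the factors was 0.168% and 0.156% as reported, 0.380% and 0.3602% over all their transcripts (each read counted again), and 0.439% and 0.413% of reads on the highest transcript of each gene. The rank correlation of 0.437 with methionine codons was 0.00478 per 100 codons and 0.269 with the length of the 3' untranslated region.

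Changes of sign were limited to 3 factors whose fold change was near 0. With 1 library left out Nanog ranged from -0.0404 (AHARIBO replicate 2) to 0.1049 (AHARIBO replicate 1), and its highest value in any setting was 0.1506 with duplicates kept. Esrrb was at 0.0325 with library size and -0.0958 with transcripts summed, and with 1 library left out ranged from -0.0682 without AHARIBO replicate 2 to 0.0655 without AHARIBO replicate 1, with 0.0047 without standard replicate 1. Zfp42 was at 0.0139 with library size, 0.158 with duplicates kept and 0.0242 with the replicate block, and with 1 library left out ranged from -0.0679 without standard replicate 2 to 0.0235 without standard replicate 3, with 0.0007 without AHARIBO replicate 1. For 1 short transcript each of Tfcp2l1 (ENSMUST00000190652.1), Klf4 (ENSMUST00000132746.1), Sall4 (ENSMUST00000130640.1) and Esrrb (ENSMUST00000167891.1), the difference of shares kept its direction with duplicate reads kept and without each library, from -8.28 to -14.1 points for Esrrb and from -10.8 to -13.0 points for Tfcp2l1. The other short transcripts were compared only with duplicate reads kept. The shares of ENSMUST00000129250.1 of Klf4 then overlapped (31.55%, 35.79% and 32.75% against 32.68% and 31.22%), as did those of ENSMUST00000103074.1 of Sall4, lower before. Those of ENSMUST00000136464.2 of Esrrb and ENSMUST00000125138.1 of Sall4, which had overlapped, were then higher without overlap, and those of ENSMUST00000209356.1 of Zfp42 lower. ENSMUST00000137536.1 of Sall4 overlapped either way. With 2 AHARIBO libraries, 1 of them decides several calls.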
